A study of Mus musculus with 2 samples.

Results

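Dense clusters of cJUN peaks along the chromosomes were examined in the embryonic mouse intestine. Clusters were chosen by peak position alone. A cluster was a chain of 5 or more peaks in which each peak started at most 100 kb past the highest earlier end on its chromosome. Of 2741 peaks in the authors' list, 215 (7.84%) fell into 22 such clusters, and 2526 lay outside them. The list came from chromatin immunoprecipitation sequencing (ChIP-seq), which reads the DNA that an antibody pulls down with its protein. It was made from 1 cJUN immunoprecipitate, labelled cJUN IP, and 1 input library of sheared DNA that had not met the antibody. Both libraries were from whole intestines taken at E14.5 from wild type embryos of the C57BL/6 strain, a single litter of 8, and kept in transwell culture for 24 h, so all cell types of the organ were pooled. Each group had 1 sample, so no value has a replicate error and no difference was tested. A peak list holds no expression values against which the labelled tissue could be checked.

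cJUN is a subunit of AP-1, a dimeric basic leucine zipper transcription factor that binds a short palindromic motif and is induced by growth factors, stress and wounding. Genes for small structural RNAs, such as the ribosomal 5S RNA and the rodent 4.5S RNA, lie in the mouse genome as runs of near-identical copies. Most small nucleolar RNA genes stand alone in introns of other genes, but some, such as those of the Snord116 family, form runs too.

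The peaks are given on mm9, and no sequence of that build was used, so the letters under the peaks are not shown. The sequences given here belong to the genes with which the authors' table pairs the clusters. They are the 250 bases before a start site on GRCm38.p6, credited to RefSeq, written 5′ to 3′ along the gene. Capitals mark TGANTCA, a form of the AP-1 motif that reads the same on both strands and was the only motif searched. Ezh2 and Pdia4 are shown because they flank the largest cluster, and neither holds a match. The other 4 are all the matches among the sequences found for genes listed at clusters. In the Adam29 sequence the match began 89 bases before the start site, in that of Hrh1 216 bases, in that of Nwd2 (listed as 3110047P20Rik) 156 bases and in that of S100a7l2 (listed as 9130204L05Rik) 77 bases. Hrh1 has further start sites among the sequences searched, and none of those held a match. Which Hrh1 start site the authors' distances refer to was not analysed.
Ezh2, chr6:47595031-47595280 (- strand): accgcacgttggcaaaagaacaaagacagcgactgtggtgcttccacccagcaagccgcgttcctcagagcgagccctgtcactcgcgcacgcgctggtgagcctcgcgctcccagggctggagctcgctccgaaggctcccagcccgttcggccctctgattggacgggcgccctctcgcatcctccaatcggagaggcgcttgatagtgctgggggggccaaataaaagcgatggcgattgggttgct
Pdia4, chr6:47813513-47813762 (- strand): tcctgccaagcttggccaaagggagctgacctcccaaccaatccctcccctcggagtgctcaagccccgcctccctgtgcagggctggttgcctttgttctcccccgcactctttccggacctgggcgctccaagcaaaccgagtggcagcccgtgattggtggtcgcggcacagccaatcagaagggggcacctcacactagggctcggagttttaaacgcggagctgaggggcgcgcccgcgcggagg
Adam29, chr8:55906965-55907214 (- strand): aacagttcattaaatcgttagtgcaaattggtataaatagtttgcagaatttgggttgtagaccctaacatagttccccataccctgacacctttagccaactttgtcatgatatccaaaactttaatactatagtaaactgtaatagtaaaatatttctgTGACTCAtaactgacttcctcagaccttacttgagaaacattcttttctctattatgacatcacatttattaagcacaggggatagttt
Hrh1, chr6:114458272-114458521 (+ strand): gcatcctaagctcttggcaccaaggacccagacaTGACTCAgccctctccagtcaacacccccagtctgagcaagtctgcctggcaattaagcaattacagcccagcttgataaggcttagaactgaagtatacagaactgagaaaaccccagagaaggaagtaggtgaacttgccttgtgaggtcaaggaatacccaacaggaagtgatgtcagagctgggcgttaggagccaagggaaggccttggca
Nwd2, chr5:63648853-63649102 (+ strand): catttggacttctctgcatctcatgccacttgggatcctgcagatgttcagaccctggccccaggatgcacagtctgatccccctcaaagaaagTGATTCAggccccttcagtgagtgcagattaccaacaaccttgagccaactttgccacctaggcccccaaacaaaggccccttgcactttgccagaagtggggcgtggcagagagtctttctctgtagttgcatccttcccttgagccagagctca
S100a7l2, chr3:91090806-91091055 (- strand): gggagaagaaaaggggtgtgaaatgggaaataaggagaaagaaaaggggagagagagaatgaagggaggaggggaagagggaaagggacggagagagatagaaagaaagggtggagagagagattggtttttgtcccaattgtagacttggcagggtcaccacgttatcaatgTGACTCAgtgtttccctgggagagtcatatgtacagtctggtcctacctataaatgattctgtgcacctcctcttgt
Of 43 such sequences, found for 32 of 39 matched genes, 4 (9.30%) held the motif, against 2217 of all 32851 sequences in the table (6.75%). No clustered peak was listed within 5 kb of any of these 6 genes, but the nearest was just past that limit, 5.17 kb from S100a7l2. Binding at the matches was not tested, so a match is given as a feature of the letters only.

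The clusters differed widely in size. As plotted by the number of peaks, 1 cluster held 56, the next 22, a pair of clusters held 15 each, and another held 11. A further 6 clusters held 6 to 8 peaks and 11 held exactly 5. The 5 clusters of 11 or more peaks together held 119 of the 215 peaks. Chromosomes 8 and X had 5 clusters each, with 37 of 196 and 45 of 234 peaks clustered. On chromosome 6, 63 of 199 peaks (31.7%) were clustered, the highest share of the chromosomes, and 56 of them belonged to 1 cluster. No cluster was found on chromosomes 1, 4, 9, 12, 15, 17, 18 or Y.

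**Figure D1:**
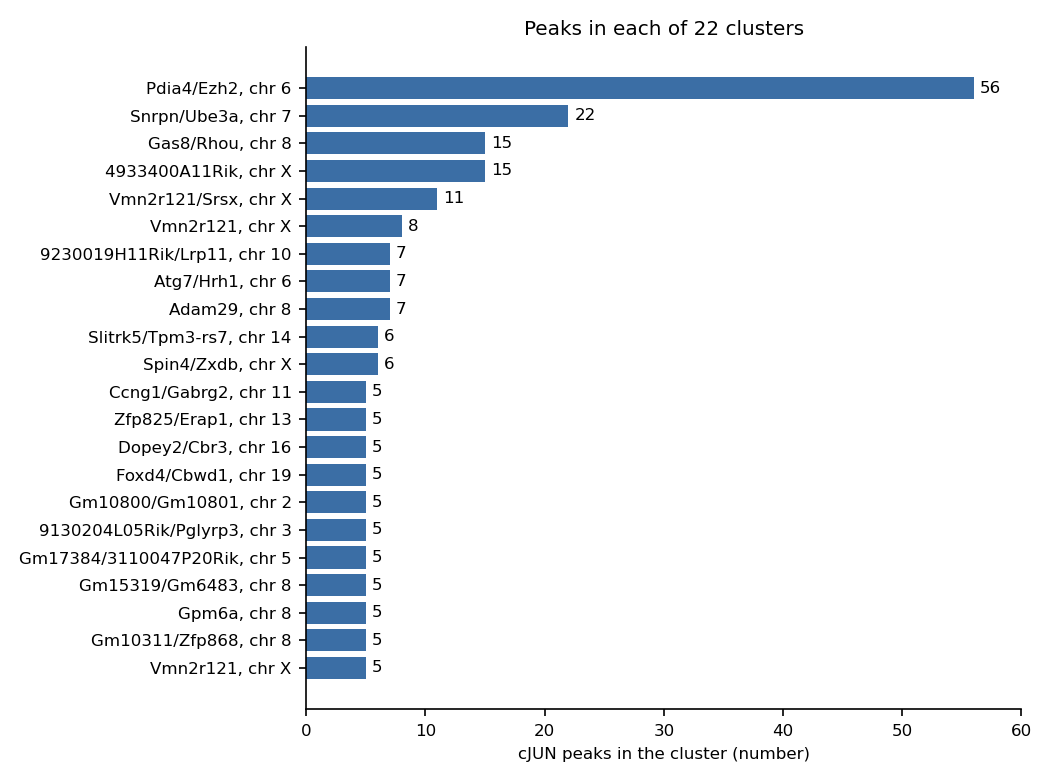
Number of cJUN peaks in each of the 22 clusters, named by the genes listed at most of their peaks and by chromosome. The bar of 56 peaks between Ezh2 and Pdia4 is followed by one of 22 and a pair of 15, and 11 bars stand at the minimum of 5.

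The largest cluster lay between Ezh2, which encodes the methyltransferase of the histone-modifying PRC2, and Pdia4, whose product forms disulfide bonds in the endoplasmic reticulum, at chromosome 6 from 47601605 to 47727195 (mm9). All 56 peaks listed both genes, at 56.8 to 182 kb from Ezh2 and 36.5 to 162 kb from Pdia4. The summed distance to both was 218 kb at every peak, which places each peak between the 2 start sites. Its peaks formed 2 blocks, with 31 peaks over 35.1 kb on the Ezh2 side and 25 peaks over 40.1 kb on the Pdia4 side, parted by 50.3 kb without a peak. Within the blocks most peaks were closely spaced, and 43 of the 55 gaps in the cluster were under 1 kb. The median gap between neighbours in the cluster was 394 bp, and the narrowest was 4 bp. Peaks covered 54.5% of the Ezh2-side block and 41.1% of the Pdia4-side block. The 2 blocks were alike in their medians, with folds of 5.69 and 5.74, scores of 82.9 and 83.2 and lengths of 587 and 593 bp on the Ezh2 and Pdia4 sides. The fold is the ratio of immunoprecipitate to background, and the score is 10 times the −log10 p, both as the authors' caller gave them.

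Peaks of the Ezh2 and Pdia4 cluster were long and of low fold. Lengths ran from 73 to 1405 bp with a median of 590 bp, and 36 of the 56 were at least 500 bp long. Folds ran from 3.77 to 10.1 with a median of 5.72, and 55 were under 10. Scores ran from 51.7 to 183 with a median of 82.9, and 16 were at least 100. The highest-scoring peak, of 1405 bp from 47715105 to 47716510, scored 183.44 at a fold of 6.10 and was also the longest. It lay 171 kb from Ezh2 and 47.7 kb from Pdia4. The only peak with a fold over 10, of 389 bp from 47604236, scored 113.82 at a fold of 10.1. Across the 56 peaks, length and score had a Spearman correlation of 0.574 and length and fold one of −0.530, as a description of peaks that share both libraries and a locus.

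The gene order around these loci was read from a RefSeq table of GRCm38.p6, which gives neighbours but not mm9 positions. Between Ezh2 and Pdia4 the table has 14 entries, and 1 of them is Rn4.5s, the 4.5S RNA gene, classed there as an rRNA. A further 6 are predicted protein-coding genes with Gm symbols. Of 21900 protein-coding genes in the table, 2745 (12.5%) were listed at any peak and 36 (0.164%) at a clustered one. Of 11 PRC2 genes checked, Ezh2 alone was listed at any peak, and Eed and Suz12, its core partners, were not. Likewise Pdia4 alone of 6 protein disulfide isomerase genes was listed at any peak. Both lists were built around a gene known to be listed, so nothing is read from these counts.

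The next cluster, of 22 peaks at chromosome 7 from 66930199 to 67054876, lay between Snrpn, which encodes a spliceosomal protein and is expressed from the paternal allele, and Ube3a, the imprinted ubiquitin ligase gene of Angelman syndrome. The distances were 230 to 355 kb from Snrpn and 446 to 571 kb from Ube3a, and their sum was 801 kb at every peak. Between these genes the table has 211 entries, of which 206 are small nucleolar RNA genes and 17 carry a Snord116 symbol. Of 7 imprinted genes of the domain, Snrpn and Ube3a were listed at this cluster and Atp10a at other peaks, and Ndn, Magel2, Mkrn3 and Snurf at none. This list too was built around genes known to be listed, against 12.5% of protein-coding genes listed at any peak. The cluster began with 3 peaks in 5.89 kb, followed by 68.2 kb without a peak and then 19 peaks in 50.6 kb.

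Peaks of the Snrpn and Ube3a cluster differed in form along the locus. The 6 peaks nearest Snrpn, 230 to 240 kb from it, were 109 to 219 bp long with folds of 6.75 to 14.74 and a median fold of 11.5. The other 16, 248 to 355 kb away, were 235 to 781 bp long with folds of 5.17 to 11.2 and a median of 6.69. The lengths of these sets, which were split after the values were seen, did not overlap, while the folds did. The highest-scoring peak, of 781 bp from 67009366 to 67010147, scored 110.93 at a fold of 6.18, 275 kb from Snrpn. Only 3 of the 22 scores reached 100.

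The cluster between Gas8, a subunit gene of the dynein regulatory complex of motile cilia, and Rhou held 15 peaks at chromosome 8 from 126068487 to 126145639. They lay 25.7 to 103 kb from Gas8 and 32.3 to 109 kb from Rhou, with a summed distance of 135 kb. The table has 54 entries between these genes, and 48 are rRNA genes, 41 of them with an n-R5s symbol for 5S rRNA. By its medians this cluster was unlike the 2 larger ones taken whole. It was close to the 6 peaks nearest Snrpn, whose median length was 147.5 bp and median fold 11.5. Its lengths were also near the median of 149 bp over all peaks. Its peaks were short, 119 to 289 bp with a median of 146 bp, and none reached 500 bp. Folds were 9.24 to 17.3 with a median of 12.05, and 1 of 15 was under 10. Scores were 50.2 to 70.0 with a median of 55.4, below the 61.3 of all peaks, and none reached 100. The highest-scoring peak, of 289 bp from 126134837 to 126135126, had the lowest fold, 9.24, a score of 70.03, and lay 42.8 kb from Rhou and 92.1 kb from Gas8. Gaps were 131 bp to 20.1 kb with a median of 3.13 kb. Of 6 dynein regulatory complex genes Gas8 alone was listed at any peak, against the 12.5% of all protein-coding genes, and the list was built around it.

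Each of these loci thus lay between genes that flank small structural RNA genes in the table. An rRNA entry stood between both listed genes for 71 of 167 clustered peaks (42.5%) with 2 genes placed on 1 chromosome of the table, against 8 of 1764 other peaks (0.454%) and 4.09% of all such peaks. The 71 peaks came from the Ezh2 and Gas8 loci alone, so they stand for 2 places in the genome, and without the Ezh2 locus the count was 15 of 111. For 10 or more rRNA or small nucleolar RNA entries, the counts were 37 of 167 clustered peaks, 2 of 1764 other peaks and 2.02% of all. The 37 peaks came from the Snrpn and Gas8 loci alone, again 2 places. Both this feature and that of any rRNA entry were chosen after the entries at these loci were seen. Neither contrast is therefore independent of the loci it describes. At least 1 small nucleolar RNA entry stood between both genes for 29 of 167 clustered peaks (17.4%), against 236 of 1764 other peaks (13.4%) and 13.7% of all, which was near the background. Of the 29, 22 were at Snrpn and 7 at 9230019H11Rik and Lrp11. For the latter pair the authors' distances summed to 82.9 kb. The RefSeq sequences began at 3119591 for 9230019H11Rik and 7589567 for Lrp11, so the table spans another interval. Those 7 peaks are therefore not read as flanking such an entry. Whether other pairs differ in this way was not analysed. Whether a peak coincides with any RNA gene copy was not analysed here, because the builds differ.

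**Figure D2:**
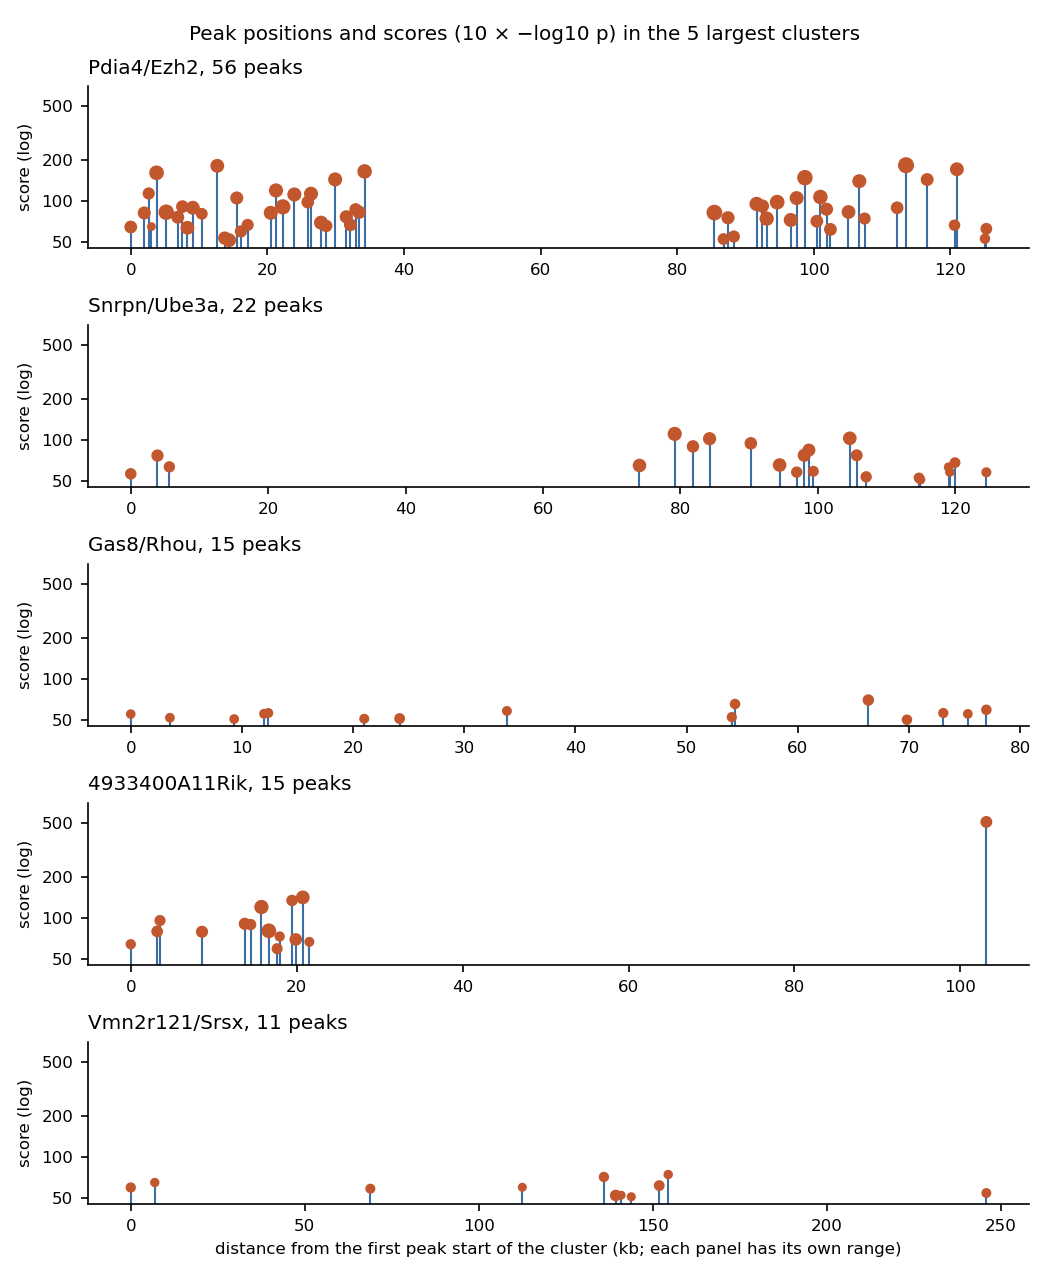
Peaks of the 5 largest clusters by distance from the first peak of the cluster (kb, own range in each panel) and by score (10 times −log10 p, log axis); each point is 1 peak and grows with peak length. The 56 peaks at Ezh2 and Pdia4 stand in 2 blocks of 31 and 25, and 14 of the 15 peaks at 4933400A11Rik lie within 21.7 kb.

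On chromosome X, a cluster of 15 peaks from 166424028 to 166527506 was listed at 4933400A11Rik alone, at 207 to 310 kb. This transcribed pseudogene stands in the table between Mid1, a ubiquitin ligase gene that spans the pseudoautosomal boundary in the mouse, and Erdr1 and Asmt, the melatonin synthesis gene. Of the 15 peaks, 14 lay within 21.7 kb, with lengths of 143 to 953 bp, a median fold of 8.69 and a median score of 80.0. The remaining peak stood 81.5 kb away, was 340 bp long from 166527166 to 166527506, and had the lowest fold of the cluster, 5.15, and the highest score, 506.51. All 15 folds were under 10, with 9.98 as the highest.

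Another 3 clusters on chromosome X, of 11, 8 and 5 peaks, were listed at Vmn2r121, a vomeronasal receptor gene of the V2R kind. The first, from 120863290 to 121109333, was also listed at Srsx, 527 to 773 kb away, and lay 140 to 386 kb from Vmn2r121. The second, from 121434101 to 121768282, lay 185 to 519 kb from it. In the third, from 122211928 to 122343573, 1 peak listed Vmn2r121 at 963 kb, and the other 4 were the only clustered peaks with no gene listed. Near Vmn2r121, 13 of the 24 nearest table entries are pseudogenes of the ribosomal protein gene Rps12. These clusters were loose, with median gaps of 7.34, 54.5 and 32.0 kb and peaks on 0.654, 0.368 and 0.769% of their spans. Their peaks were short, at medians of 141, 147 and 152 bp, with median folds of 14.1, 12.4 and 9.93, and no score in them passed 74.17.

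In 2 clusters the peaks were more evenly spaced than in the others. At Spin4, a spindlin-family histone reader gene, and Zxdb, an X-linked zinc finger gene, 6 peaks on chromosome X from 92123524 to 92159983 started 6.12 to 8.34 kb apart, and the coefficient of variation of these steps was 14.6%. Their lengths were also alike, 232 to 301 bp, with folds of 6.12 to 14.7 and scores of 53.9 to 83.3. At Adam29, a gene of the metalloprotease-like ADAM family, 7 peaks on chromosome 8 from 57976784 to 57998210 started 2.47 to 4.87 kb apart, with a coefficient of variation of 26.4%. They lay 388 to 409 kb from Adam29, with folds of 5.45 to 13.5 and scores of 50.2 to 68.8. Over the 22 clusters this coefficient ran up to 298% with a median of 98.5%, and the next lowest, 30.1% at Zfp825 and Erap1, was close to that at Adam29.

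Several clusters with high scores held blocks of closely packed peaks. At 9230019H11Rik and Lrp11, a gene of the LDL receptor-related family, 7 peaks on chromosome 10 filled 78.6% of 7.83 kb from 7229298 to 7237128, 3.24 to 10.2 kb from 9230019H11Rik. Their folds were 4.83 to 5.59, the narrowest range of any cluster, while their scores ran from 62.71 to 1433.76 and their lengths from 239 to 2809 bp. At the predicted genes Gm10800 and Gm10801 on chromosome 2, 4 peaks lay within 5.11 kb from 98502384. Folds were 4.58, 6.71, 6.18 and 4.51, and scores were 2821.78, 844.69, 771.06 and 3100. The last peak, 61.1 kb further on, scored 77.98 at a fold of 22.11. At Gpm6a, a neuronal membrane glycoprotein gene, 5 peaks on chromosome 8 filled 69.8% of 10.1 kb from 56198977 to 56209057, 159 to 167 kb from the gene. Their folds were 5.62, 3.93, 3.49, 4.14 and 3.75, their lengths 660, 708, 485, 1630 and 3557 bp, and their scores 106.84, 60.87, 64.56, 101.08 and 266.86. This cluster had the lowest median fold, 3.93, and the longest clustered peak.

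A further 4 clusters were compact or held scores of at least 100 or both. At Zfp825, a zinc finger gene, and Erap1, an aminopeptidase gene of antigen processing, 5 peaks on chromosome 13 lay within 2.25 kb from 74665902, the shortest span of the clusters. Their folds were 13, 6.26, 6.84, 17.1 and 11.41 and their scores 135.69, 119.89, 55.76, 210.19 and 187.76, so high folds and high scores stood together here. At Gm15319 and the pseudogene Gm6483, 5 peaks on chromosome 8 from 19759407 to 19927227 had scores of 155.17, 67.31, 56.43, 609.47 and 490.21, with folds of 6.50, 16.94, 6.19, 5.45 and 5.96. At Gm10311 and Zfp868 on chromosome 8, from 71945650 to 72047898, 1 of 5 scores reached 100, that of a peak of 282 bp that scored 143.95 at a fold of 5.61. The 5 peaks at Foxd4, a forkhead gene, and Cbwd1, within 3.92 kb on chromosome 19 from 24988468 to 24992384, were compact without low folds. Their folds were 15.36, 15.92, 15.63, 15.74 and 13.03, with scores of 56.7, 53.39, 95.2, 66.77 and 56.75, 12.7 to 16.5 kb from Foxd4.

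The remaining clusters were wide chains of short peaks. At Atg7, the E1-like enzyme gene of autophagy, and Hrh1, the histamine H1 receptor gene, 7 peaks on chromosome 6 from 114454844 to 114578977 had folds of 10.4 to 18.7 (median 14.97) and lengths of 121 to 194 bp, 14.3 to 138 kb from Atg7. At Slitrk5, a synaptic adhesion gene, and Tpm3-rs7, 6 peaks on chromosome 14 from 112734163 to 113027630 lay 660 to 953 kb from Slitrk5, with folds of 8.57 to 18.4. All 6 were over 500 kb from both genes. At Ccng1, the cyclin G1 gene, 5 peaks on chromosome 11 from 40770843 had folds of 14.74, 12.15, 17.47, 21.41 and 14.07, 202 to 336 kb away. At 9130204L05Rik, an S100-family gene, 5 peaks on chromosome 3 from 90769562 had folds of 11.96, 18.42, 18.42, 14.74 and 14.74, and the last 3 lay 5.17 to 6.23 kb from 9130204L05Rik. The peptidoglycan recognition genes were farther off, with Pglyrp3 listed at 3 peaks, 918 to 919 kb away, and Pglyrp4 at 2, 239 to 323 kb away. At Gm17384 and 3110047P20Rik on chromosome 5, from 63263280 to 63372502, folds were 14.95, 14.07, 11.35, 7.04 and 13.53. These peaks lay 58.3 to 167 kb from Gm17384 and 668 to 777 kb from 3110047P20Rik. The cluster at Dopey2, the carbonyl reductase gene Cbr3, the SET-domain gene Setd4 and Morc3 on chromosome 16, from 93598171 to 93789583, listed 5 genes, more than any other, with 1 peak also listed at Runx1, 772 kb away. Its folds were 4.71, 6.21, 10.82, 18.32 and 9.54, and its highest score, 138.72, belonged to a peak 42.9 kb from Morc3 and 77.4 kb from Dopey2.

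**Figure D3:**
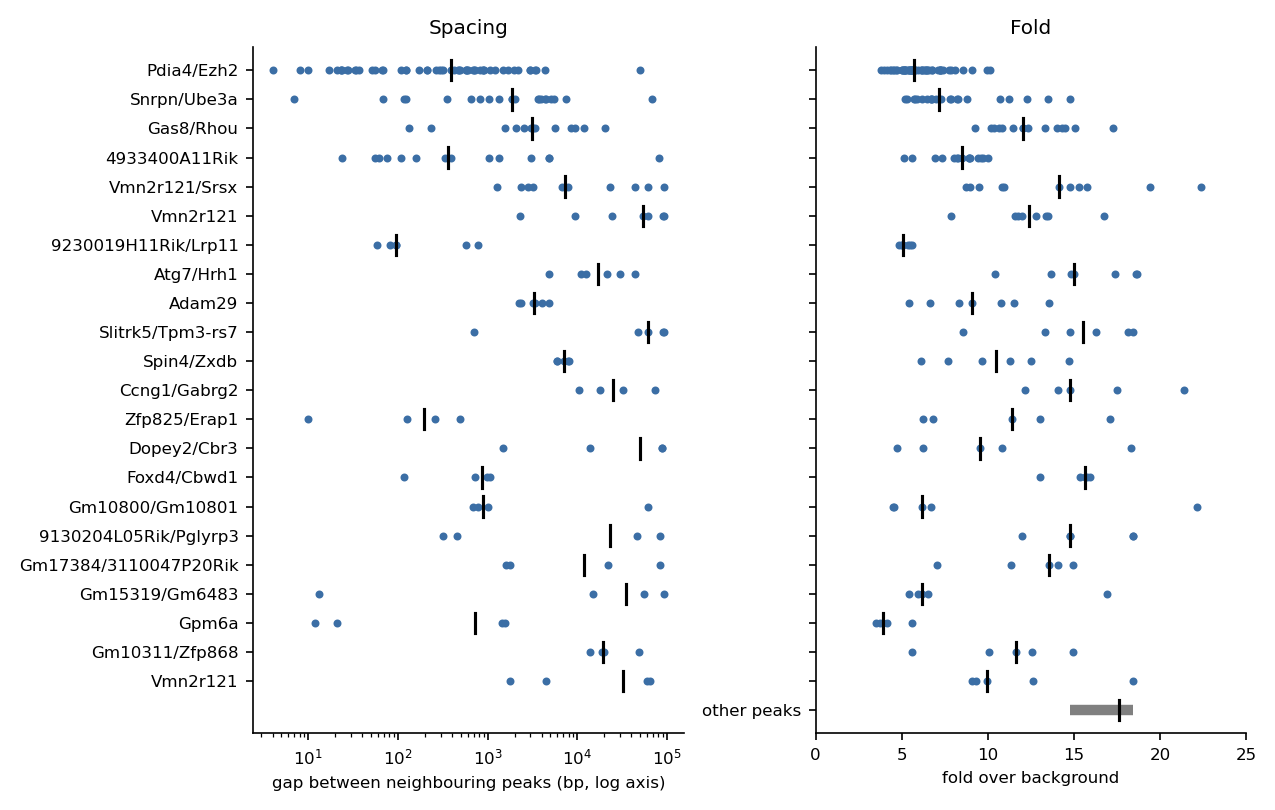
Gaps between neighbouring peaks (left, bp, log axis) and folds over background (right) in each cluster, with points for gaps or peaks, black ticks for medians, and a grey bar for the quartiles of the 2526 other peaks. Gap medians run from 95 bp to 61.7 kb, and the fold medians of all 22 clusters lie below the 17.6 of the other peaks.

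Taken by cluster, the median gap ran from 94.5 bp at 9230019H11Rik to 61.7 kb at Slitrk5. It was under 1 kb in 7 clusters and over 10 kb in 10. Spans ran from 2.25 to 334 kb. Of 193 gaps inside clusters 81 were under 1 kb, and 122 of all 2720 gaps between neighbouring peaks were. Membership was fixed by position, so short gaps are given as a description only. The widest gap inside a cluster was 92.98 kb, and the nearest peak outside one stood 109.62 kb from it, next to the Gm15319 cluster. Just outside the size limit were 7 chains of 4 peaks, such as those at the neural transcription factor gene Pou3f2, at the collagen lysyl hydroxylase gene Plod2 and at Rfx6 and Vgll2. Their 28 peaks had a median fold of 17.59 and a median length of 148.5 bp, and the 55 peaks of the 11 clusters of exactly 5 had 11.61 and 171 bp.

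Fold was not part of the rule. The median fold was 8.47 for clustered peaks (quartiles 5.78 and 12.7), against 17.59 for other peaks (14.7 and 18.4). The median and both quartiles of the other peaks are among the 5 most frequent fold values of the list. These values were held by 1491 other peaks (59.0%) and 11 clustered peaks (5.12%). A fold under 10 was found for 130 of 215 clustered peaks (60.5%), against 201 of 2526 other peaks (7.96%) and 12.1% of all peaks. The 2 largest clusters held 72 of the 130, and without the largest the count was 75 of 159 (47.2%). Such folds occurred in 18 of the 22 clusters and at every peak of 3, those at 4933400A11Rik, 9230019H11Rik and Gpm6a. No cluster had a median fold above the 16.75 of the whole list, and the median over the clusters' own medians was 10.95, so the lower folds were not only those of the 56-peak cluster.

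Clustered peaks were longer than the others by the median, which was 272 bp for clustered peaks, against 149 bp for other peaks. Of clustered peaks 59 of 215 (27.4%) were at least 500 bp long, against 20 of 2526 other peaks (0.792%) and 2.88% of all. These 59 came from 7 clusters, 36 of them from the Ezh2 and Pdia4 cluster, and all 59 had folds under 10. Low folds among the 20 other peaks of that length were not counted, so this is not given as particular to clusters. Without the Ezh2 and Pdia4 cluster, the median length of clustered peaks was 186 bp. Clustered peaks made up 16.7% of the summed length of all peaks. Across clustered peaks, length and fold had a Spearman correlation of −0.730 (n = 215), against −0.0502 among other peaks (n = 2526). The pooled value mixes clusters with different medians. Within the 5 largest clusters it was −0.530 at Ezh2 and Pdia4 (n = 56), −0.439 at Snrpn and Ube3a (n = 22), −0.365 at Gas8 and Rhou (n = 15), 0.118 at 4933400A11Rik (n = 15) and −0.218 at Vmn2r121 and Srsx (n = 11). Length and score had a Spearman correlation of 0.647 in clustered peaks and 0.0589 in other peaks, and within the 5 largest clusters it ran from 0.127 to 0.779. These are descriptions across peaks of 1 pair of libraries.

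**Figure D4:**
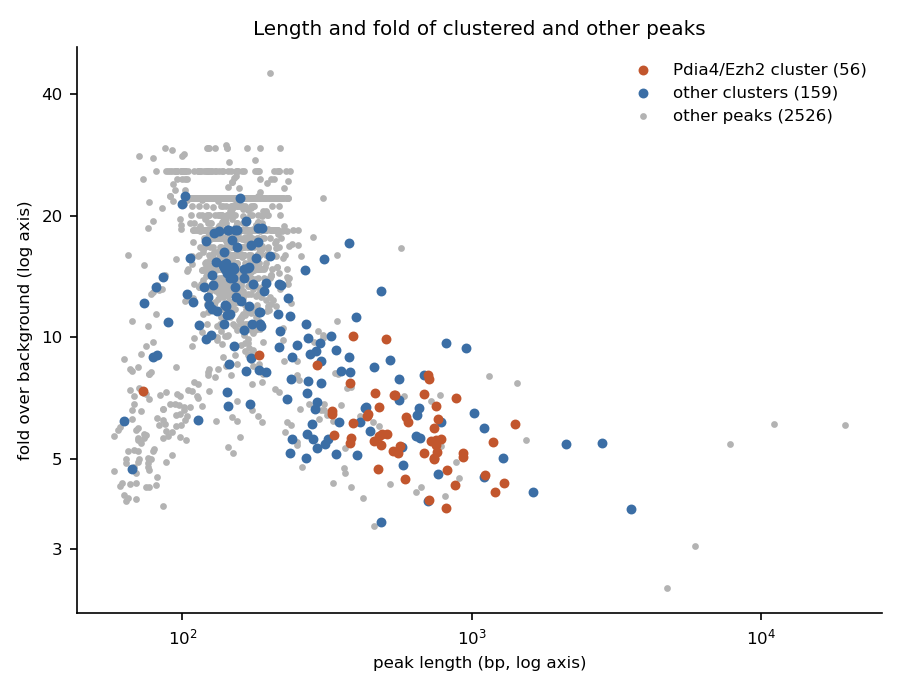
Length (bp, log axis) and fold over background (log axis) of each peak, with the Ezh2 and Pdia4 cluster in orange, other clusters in blue and other peaks in grey. All 59 clustered peaks of at least 500 bp lie below a fold of 10, and most of the 2526 other peaks gather near 149 bp. Low folds among the 20 other peaks of at least 500 bp were not counted.

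Scores differed less between the medians than at the upper end. The median score was 66.97 for clustered peaks, against 61.05 for other peaks. A score of at least 100 was found for 45 of 215 clustered peaks (20.9%), against 82 of 2526 other peaks (3.25%) and 4.63% of all. Of the 43 peaks that scored 150 or more (1.57% of all), 21 were clustered, from 7 clusters. In 12 of the 22 clusters, no score reached 100.

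The nearest listed gene was a median of 80.9 kb away for 211 clustered peaks, against 90.5 kb for 2424 other peaks. Without the Ezh2 and Pdia4 cluster it was 165 kb for 155 clustered peaks, so the direction of this difference rested on that locus. Within 5 kb of a listed gene lay 7 of 211 clustered peaks (3.32%), against 67 of 2424 other peaks (2.76%) and 2.81% of all, so this share was near the background. Within 10 kb lay 16 of 211 clustered peaks (7.58%), against 212 of 2424 other peaks (8.75%) and 8.65% of all, and without the Ezh2 and Pdia4 cluster 16 of 155 (10.3%), so this direction turned too. No gene was listed for 4 of 215 clustered peaks (1.86%), against 102 of 2526 other peaks (4.04%) and 3.87% of all. The 7 peaks within 5 kb were 4 peaks at Gm10800 and Gm10801, 2 at 9230019H11Rik, at 3.24 and 4.73 kb, and 1 at Cbr3, at 3.52 kb. More than 500 kb from the nearest listed gene lay 8 of 211 clustered peaks (3.79%), against 264 of 2424 other peaks (10.9%) and 10.3% of all. These 8 came from 3 clusters, with 6 at Slitrk5, and peaks of a cluster mostly share their listed genes. Without the Ezh2 and Pdia4 cluster the count was 8 of 155 (5.16%).

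The clusters listed 41 different genes in all. Of the 41, 39 matched RefSeq, and 36 of those were protein-coding. Symbols of predicted genes (Gm and a number) made up 6 of 41 (14.6%), against 251 of 2963 among genes listed at any peak (8.47%), and Zfp symbols 2 of 41, against 38 of 2963. Of the olfactory receptor genes, 86 of which were listed in all, and the 14 listed major urinary protein genes, none was listed at a cluster. Counts this small describe the list and set no family apart.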

How the data were processed

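The data are 1 list of cJUN peaks from 1 immunoprecipitate and 1 input library. Per the submitters' processing notes, Bowtie 1.1.0 and MACS 1.4 were used with mm9. The peak threshold and how duplicate or multiply aligned reads were treated are not given in the sources used here. Multiply aligned reads, kept or dropped, can change peaks in repeated sequence. Per the file headers, the fold is a ratio over background and each peak's score is its −log10 p-value multiplied by 10. Fold ratio, score and p-value are the authors' deposited values and were used to describe peaks within the list. Total reads were not used, so depth is unknown. Distances are given without sign. End minus start equals the length for 2740 peaks and differs for 1.

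Peaks were chained with Python 3.11.15 and pandas 2.3.3 (gap of at most 100 kb, at least 5 peaks), and the chaining was tested on simulated data. Gene symbols were matched to RefSeq (GRCm38.p6) by symbol or by the synonym of a single gene. Named genes were those listed at the most peaks of each cluster, all genes listed at 2 or more peaks of the 5 largest, and the highest-scoring peak of each; others were named after their values were seen. The count for 1 further gene list is not reported here. The members, lists and cluster definition were chosen with earlier results of these data known. Alternatives were gap limits of 50 and 200 kb, minimum sizes of 4 and 10, midpoint distances, only scores from 60 upwards, only folds from 10 upwards, and merging of peaks within 1 kb. Leaving out the largest cluster was added after seeing the data. No test was run, since each group has 1 sample.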

Additional observations from a re-analysis of the deposited data

How the results depend on the processing

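Leaving out the cluster between Ezh2 and Pdia4 was chosen after seeing the data. The 22 clusters were 14 with a gap limit of 50 kb, 5 with at least 10 peaks, 6 with a score of at least 60 and 7 with a fold of at least 10. The 215 clustered peaks were 119 with at least 10 peaks, 95 with a score of at least 60, 50 with folds from 10 upwards and 117 when peaks within 1 kb were merged. The largest cluster, of 56, held 31 with a gap limit of 50 kb, 14 with folds from 10 upwards, 15 when peaks within 1 kb were merged and 22 without the Ezh2 and Pdia4 cluster. The median fold of 8.47 was 14.38 with a fold of at least 10, which follows from that limit. Stricter limits cannot raise the number of clustered peaks, and a higher minimum size cannot raise the number of clusters. A lower gap limit or fewer peaks can split a cluster. The 50 kb limit split that between Ezh2 and Pdia4 at its 50.3 kb gap, into chains of 31 and 25 peaks. All other values, 23 in number, stayed within 1.5 times the main value, the limit used for counts and medians alike, and midpoint distances gave 22 clusters and 215 peaks. No paired analysis was possible because each group has 1 sample. Depth is unknown, so the number of weak peaks that could link further chains cannot be judged.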

Other observations

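The authors' fold took a few values many times. The 5 most frequent, 14.74, 17.59, 18.42, 22.11 and 25.79, were held by 11 of 215 clustered peaks (5.12%), against 1491 of 2526 other peaks (59.0%). The summit lay at a median of 49.4% of the peak length in clustered peaks and 49.5% in other peaks.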
